A study of Mus musculus with 10 samples.

Results

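The Hoxa3 to Hoxa13 cluster is the stretch of mouse chromosome 6 that runs from Hoxa3 to Hoxa13. It was taken as every CpG position in a span of 96 kb of the mm9 build, in which the first and last listed positions bound chr6:52118416-52212614. The 9 genes are Hoxa3, Hoxa4, Hoxa5, Hoxa6, Hoxa7, Hoxa9, Hoxa10, Hoxa11 and Hoxa13. Of 7972927 autosomal CpG positions listed in at least 1 of 10 libraries, 3079 lay in the cluster. At least 5 reads in every library were required for a comparison of all groups, which left 390 positions of the cluster among 559685 autosomal ones.

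Methylation had been measured by reduced representation bisulfite sequencing, which reads the CpG-rich fragments that the enzyme MspI cuts out at CCGG. The libraries came from leukaemic mouse spleen in a 2 by 2 design of oncogene and Dnmt3b genotype. MLL-AF9 leukaemia, driven by a fusion of the histone methyltransferase MLL with AF9, was sampled as c-kit+ spleen cells, with 3 wild type (WT) and 3 Dnmt3b-knockin libraries. The cMyc-Bcl2 leukaemia, driven by a transcription factor together with a survival protein, was sampled as leukaemic spleen cells with no sort named, with 2 WT and 2 Dnmt3b-knockin libraries. Dnmt3b is a DNA methyltransferase that places methyl groups on unmethylated CpGs, and the study's text calls the knockin tetracycline-inducible and compares leukaemia under high and physiological methylation. The sources used here do not give the dose or length of induction, the age of the animals or the strain. Oncogene and sort cannot be told apart in any comparison of the leukaemias. Whether the libraries of a group are from separate animals is not labelled, so p-values cover only the spread between libraries, which may be technical. The labelled cell type could not be checked on expression, since DNA methylation alone was measured.

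Hox genes encode homeodomain transcription factors that set positional identity in the embryo. In blood, the genes of the A cluster, Hoxa9 and Hoxa10 above all, are active in stem and progenitor cells, are shut off as cells mature and are kept on by MLL fusion proteins. Many of their promoters are rich in CpGs, normally free of methylation and held by Polycomb or Trithorax complexes when off or on.

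Library depth ran from 14446933 to 46762220 read calls, of which 9302 to 33758 fell in the cluster. The median reads per listed autosomal position were 6 to 18 in the cMyc-Bcl2 libraries and 2 to 3 in the MLL-AF9 libraries. Depth by this measure therefore cannot be told apart from oncogene and sort. Between 630 and 1045 cluster positions per library reached 5 reads. The share of methylated calls on mitochondrial DNA, a rough measure of unconverted bases, was 0.910% to 3.20%. Levels at the 390 cluster positions correlated at 0.657 to 0.941 between libraries of 1 group. Between libraries of different groups they correlated at 0.644 to 0.960. All libraries share CpGs and base composition, and no library matched another in all its values.

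No gene annotation of mm9 was used, so gene starts were located by matching the spacing of CpGs in the RefSeq promoter sequences (GRCm38.p6) to the listed positions. By that match 6 of the 9 genes were placed, all on the minus strand, with starts at position 52163066 for Hoxa3, 52154586 for Hoxa5, 52158671 for Hoxa6, 52184938 for Hoxa10, 52195809 for Hoxa11 and 52210874 for Hoxa13. Hoxa7 was placed at 52168572 by a looser match chosen after the values were seen. Hoxa4 and Hoxa9 were not placed. In the RefSeq gene order Hoxa4 is the next start below Hoxa5 in coordinates, and Hoxa9 lies between Hoxa7 and Hoxa10. The placed Hoxa3 start is that of a long transcript, which lies above the starts of Hoxa5 and Hoxa6 in coordinates and runs past them and Hoxa4.

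The promoter sequences differed in CpG content. Each RefSeq entry of 300 bases held 26 CpGs at Hoxa6, 29 at Hoxa5, 45 at Hoxa13 and 4 at Hoxa9, against a median of 7 over 32851 promoter entries. The letters CCGG, which read the same on both strands and are the cut of the enzyme, occurred 3 times in the Hoxa6 entry, and 52.8% of all entries held them at least once. The 250 bases before the start are shown for Hoxa6, whose methylation varied widely between libraries, for Hoxa13, which had little methylation in any library, and for Hoxa5. Capitals mark CpGs read at least 5 times in all 10 libraries. Hoxa5 has no capitals because its measured positions lay just inside the gene. Each sequence is written 5′ to 3′ on the minus strand, and spans chr6:52158672-52158921 for Hoxa6, chr6:52154587-52154836 for Hoxa5 and chr6:52210875-52211124 for Hoxa13.
Hoxa6: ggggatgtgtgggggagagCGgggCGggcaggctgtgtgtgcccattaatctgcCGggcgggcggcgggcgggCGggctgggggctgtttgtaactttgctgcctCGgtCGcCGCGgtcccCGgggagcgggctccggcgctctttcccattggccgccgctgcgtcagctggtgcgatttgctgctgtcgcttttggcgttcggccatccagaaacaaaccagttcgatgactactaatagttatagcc
Hoxa5: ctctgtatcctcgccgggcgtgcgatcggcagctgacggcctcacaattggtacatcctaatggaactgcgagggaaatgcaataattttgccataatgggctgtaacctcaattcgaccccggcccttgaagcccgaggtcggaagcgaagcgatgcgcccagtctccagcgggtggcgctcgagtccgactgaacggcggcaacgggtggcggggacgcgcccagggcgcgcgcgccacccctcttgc
Hoxa13: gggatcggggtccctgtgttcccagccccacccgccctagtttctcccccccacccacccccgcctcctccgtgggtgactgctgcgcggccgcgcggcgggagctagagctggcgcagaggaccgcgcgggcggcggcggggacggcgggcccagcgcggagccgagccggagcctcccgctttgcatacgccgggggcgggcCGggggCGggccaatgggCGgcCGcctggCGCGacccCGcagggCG

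The cluster was mostly unmethylated on the Hoxa7 to Hoxa13 side and methylated around Hoxa5 and Hoxa6. For the profile, reads were summed per window of 1 kb with at least 3 positions, which left 22 windows in the cluster of 40428 tested over the autosomes. Of these 22, 17 were under 20% methylated in MLL-AF9 WT, 16 in MLL-AF9 knockin, 14 in cMyc-Bcl2 WT and 13 in cMyc-Bcl2 knockin. Over all autosomal windows the share under 20% was 48.5%, 44.9%, 47.9% and 41.7% in the same order. Windows over 80% numbered 3, 3, 3 and 1 of 22, against 35.9%, 40.5%, 36.4% and 38.6% of all windows.

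**Figure D1:**
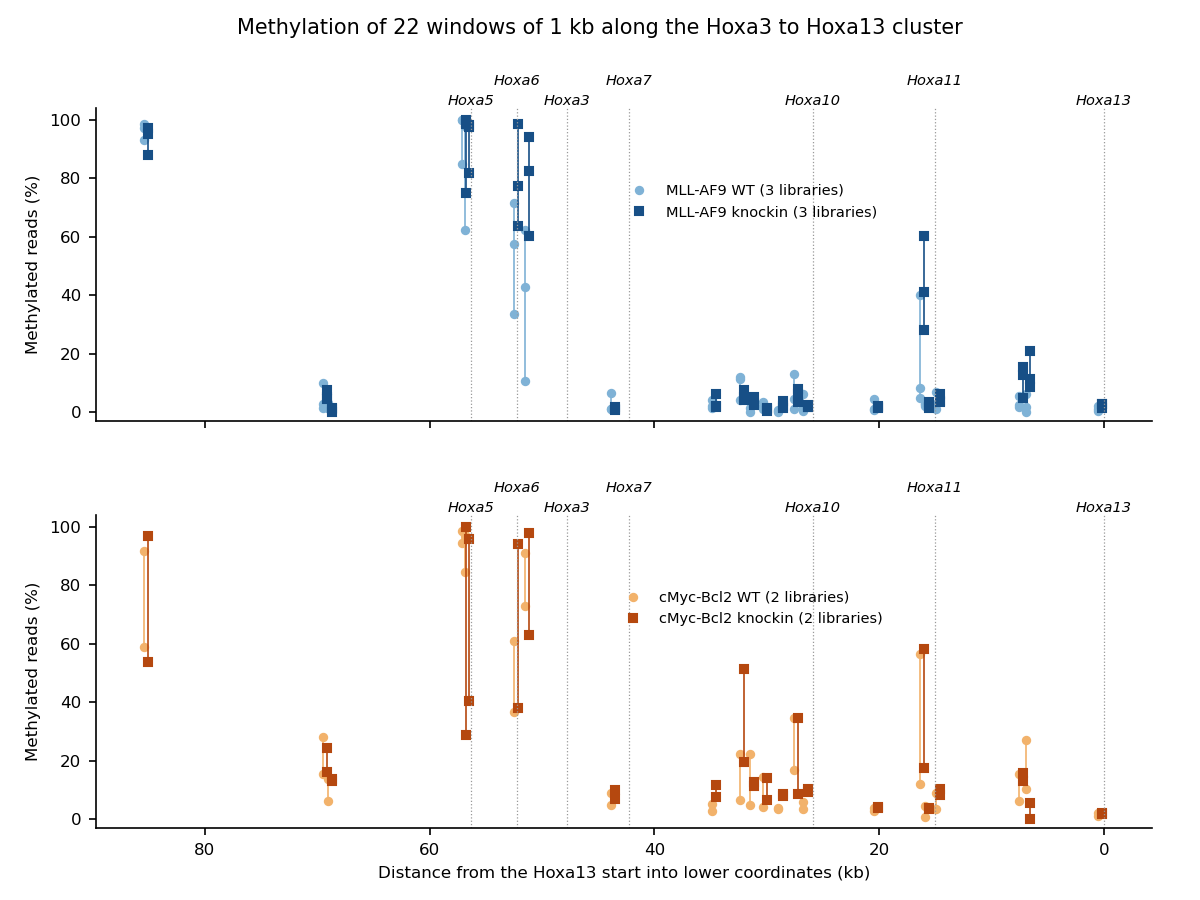
Percent of methylated reads (y axis) in each 1-kb window of the cluster against distance from the Hoxa13 start in kb (x axis, Hoxa13 at the right). Each point is 1 library, vertical lines join the libraries of a group, the upper panel holds the MLL-AF9 and the lower the cMyc-Bcl2 libraries, and dotted lines mark the placed starts. High values sit around Hoxa5 and Hoxa6 and at the far left, and the window at the Hoxa13 start stays at or under 2.8% in all 10 libraries.

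Averaged over the 390 positions, each counted once, the cluster was 15.7%, 15.6% and 15.3% methylated in the MLL-AF9 WT libraries and 21.4%, 19.6% and 17.0% in the MLL-AF9 knockin libraries. The cMyc-Bcl2 WT libraries stood at 21.1% and 22.1%, and the knockin libraries at 27.3% and 21.5%. All 3 MLL-AF9 knockin libraries lay above all 3 WT libraries, while the cMyc-Bcl2 genotypes overlapped. The group means were 15.5% ± 0.24 (SD, n = 3), 19.3% ± 2.2 (SD, n = 3), 21.6% ± 0.71 (SD, n = 2) and 24.4% ± 4.2 (SD, n = 2). Over all autosomal positions the same means were 22.6%, 24.9%, 22.9% and 25.8%, with both knockin groups above their WT libraries. The knockin difference in the cluster was 3.79 points in MLL-AF9, and for cMyc-Bcl2 it was 2.82 points. Between the leukaemias, cMyc-Bcl2 was 6.06 points higher in the WT and 5.09 points higher in the knockin libraries, with no overlap in either genotype. The window chr6:52141001-52142000 alone held 61 of the 390 positions and differed by 16.99 and 14.6 points. It therefore weighs heavily in both differences, and weighting by reads lowered the knockin difference. Those averages over the cluster are given as a description.

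In the knockin comparison, no window of the cluster passed the test in either leukaemia. A window was called at an adjusted p under 0.05 in a limma-moderated quasi-binomial fit with a difference of at least 10 points. In MLL-AF9, 0 of 22 windows were called higher or lower, against 0.0% and 0.00247% of all windows. The count at an unadjusted p under 0.05 was 2 of 22, against 10.9% of all windows, and limma on M-values (log2 ratios of methylated to unmethylated reads) called 0, against 0.00495%, with 4 at an unadjusted p under 0.05, against 13.0%. In cMyc-Bcl2, 0 of 22 were called, against 5.63% higher and 0.522% lower of all windows by the quasi-binomial fit. There 3 of 22 had an unadjusted p under 0.05, against 20.8%, and limma on M-values called 0, against 0.0%, with 1 at that p, against 13.2%. Averaged over both leukaemias 0 of 22 were called, against 3.11% higher and 0.0247% lower, with 2 at an unadjusted p under 0.05, against 17.9%, and limma on M-values called 0, against 0.423%, with 2 at that p, against 16.4%. The median difference over the cluster's windows was 0.848 points in MLL-AF9, beside 1.12 over all windows. In cMyc-Bcl2 the 2 medians were 0.963 and 0.120. Knockin libraries lay above WT without overlap in 2 of 22 windows in MLL-AF9, against 18.6% of all windows, and in 4 of 22 in cMyc-Bcl2, against 24.6%. Below WT without overlap they lay in 0 of 22, against 1.48%, and 1 of 22, against 17.5%. In both leukaemias at once they lay above in 1 window, against 6.2%, and below in 0, against 0.257%.

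Hoxa6 varied widely in methylation before its start, and its knockin means were the higher in both leukaemias. Over the 20 positions within 1 kb before the start it was 29.6%, 44.2% and 12.7% methylated in MLL-AF9 WT and 97.0%, 58.3% and 43.0% in MLL-AF9 knockin. The cMyc-Bcl2 libraries were at 43.0% and 23.0% in WT and 94.9% and 30.8% in knockin. Genotypes overlapped in both leukaemias over these 20 positions. A block of 16 positions lay 128 to 275 bp before the Hoxa6 start (chr6:52158799-52158946), within and just beyond the printed sequence. It was 31.7%, 38.8% and 4.8% methylated in MLL-AF9 WT and 98.0%, 50.4% and 41.2% in MLL-AF9 knockin. In cMyc-Bcl2 it was 23.9% and 16.1% in WT and 94.6% and 27.6% in knockin. In this block the lowest knockin library exceeded the highest WT library in each leukaemia, and 1 knockin library of each was almost fully methylated. The margins were narrow. In MLL-AF9 it was 41.2% against 38.8%, with 95% Wilson intervals of 36.8% to 45.7% and 33.3% to 44.7%. In cMyc-Bcl2 it was 27.6% against 23.9%, with intervals of 24.9% to 30.6% and 18.8% to 29.9%. The intervals of each pair overlapped, so counting error alone could remove the separation. Blocks are runs of positions at most 100 bp apart, and this one was picked with its values known. Of the cluster's 36 blocks, knockin lay above WT without overlap in 8 in MLL-AF9, against 16.0% of all autosomal blocks, in 9 in cMyc-Bcl2, against 21.9%, and in 3 in both, against 4.87%. The other 2 of those 3, at chr6:52182051-52182122 and at the Hoxa13 start, differed by 0.475 to 4.58 points. In the 2 almost fully methylated knockin libraries 16 and 15 of the 16 positions before Hoxa6 reached 80%, while the other 8 libraries had 0 to 3 such positions. The fewest reads behind a value were 187, in MLL-AF9 WT replicate 3, where 9 methylated calls give 4.8% with a 95% Wilson interval of 2.55% to 8.89%. Intervals of this kind cover counting error only. The means were 25.1% ± 18 (SD, n = 3) and 63.2% ± 31 (SD, n = 3) in MLL-AF9, and 19.99% ± 5.5 (SD, n = 2) and 61.1% ± 47 (SD, n = 2) in cMyc-Bcl2.

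Just inside the Hoxa6 gene, from 236 to 433 bp past the start, methylation was high in most libraries. This second block of 15 positions was 87.6%, 94.0% and 63.8% in MLL-AF9 WT, and 98.8%, 95.3% and 93.0% in MLL-AF9 knockin. It was 85.7% and 72.1% in cMyc-Bcl2 WT and 93.4% and 82.1% in knockin. The MLL-AF9 WT library with the least methylation before the start was also the lowest here.

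**Figure D2:**
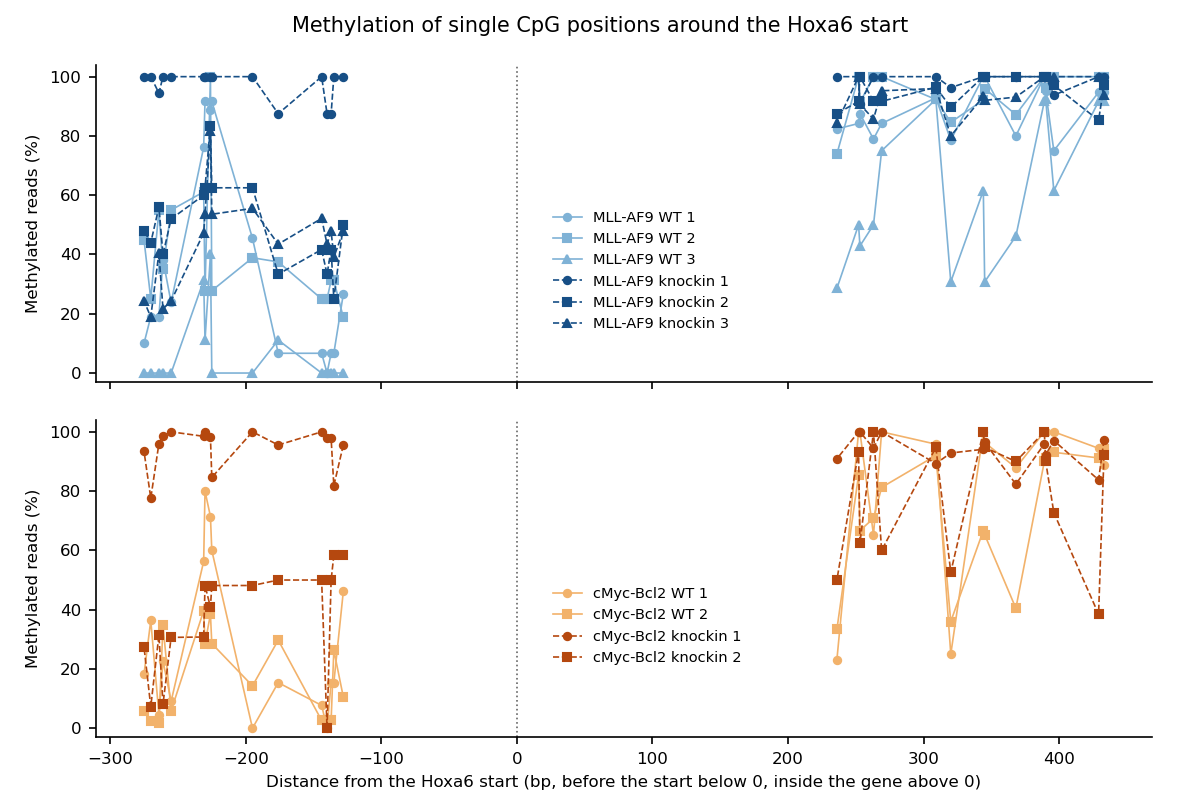
Percent of methylated reads (y axis) at single CpG positions against distance from the Hoxa6 start in bp (x axis; positions before the start below 0), 1 line per library, WT solid and knockin dashed, MLL-AF9 above and cMyc-Bcl2 below. Knockin replicate 1 of each leukaemia stays between 78% and 100% before the start, and the other libraries lie lower at nearly every position.

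Both blocks fall in the 1-kb window that holds the Hoxa6 start, which had 364 to 1635 reads per library. Its level was 57.6%, 71.5% and 33.5% in MLL-AF9 WT and 98.4%, 77.4% and 63.6% in knockin, so that the ranges overlapped. In cMyc-Bcl2 it was 60.8% and 36.8% in WT and 94.1% and 38.0% in knockin, again overlapping. The differences of 25.6 and 17.3 points had adjusted p = 0.756 and 0.495 in the limma-moderated quasi-binomial fit. Without cMyc-Bcl2 knockin replicate 2 this window was called, with a difference of 45.3 points in cMyc-Bcl2 (adjusted p = 0.0338, limma-moderated quasi-binomial fit) that then rests on 1 knockin library, and 35.5 points averaged over both leukaemias (adjusted p = 0.0445, same fit).

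Farther before the Hoxa6 start, 768 to 962 bp away, 4 positions were 10.7%, 62.2% and 42.9% methylated in MLL-AF9 WT and 94.1%, 82.6% and 60.4% in knockin, on 28 to 143 reads per library. The cMyc-Bcl2 libraries stood at 91.1% and 72.7% in WT and at 97.9% and 63.0% in knockin. The MLL-AF9 difference of 40.5 points did not pass (adjusted p = 0.489, limma-moderated quasi-binomial fit), and 1 WT library lay above the lowest knockin library.

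Hoxa5, whose product activates p53 and acts in blood cell maturation, was methylated just inside its gene in most libraries. The window of the Hoxa5 start held 13 positions, 286 to 420 bp past the start. It was 62.2%, 97.8% and 99.4% methylated in MLL-AF9 WT and 97.3%, 98.1% and 81.8% in knockin. In cMyc-Bcl2 it was 84.4% and 97.1% in WT and 95.8% and 40.5% in knockin. A single library, cMyc-Bcl2 knockin replicate 2, lay far under the rest, at 40.5% of 650 reads with a 95% Wilson interval of 36.8% to 44.3%. In the neighbouring window, 615 to 633 bp past the start, the same library was at 28.9% while the other 9 lay between 74.9% and 100%. The cMyc-Bcl2 knockin differences of -22.6 and -31.9 points had adjusted p = 0.333 and 0.351 in the limma-moderated quasi-binomial fit, and without that library the first became 4.51 points. Before the start, in the 250 bases printed and the first 50 of the gene, 9 positions reached 5 reads in the 4 cMyc-Bcl2 libraries. They were 83.8% and 81.5% methylated in WT and 94.1% and 74.3% in knockin.

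By stretches between gene starts, knockin lay above WT without overlap in both leukaemias in 1 of 7, from Hoxa6 to Hoxa7, by narrow margins. The share over like stretches of the genome was not computed. The mean over all autosomal positions also lay higher in knockin without overlap in both leukaemias. Whether the count is particular to the cluster was not tested. The 49 positions from Hoxa6 to Hoxa7 averaged 16.2%, 19.2% and 6.4% in MLL-AF9 WT and 39.8%, 24.0% and 20.6% in knockin. They averaged 19.8% and 14.8% in cMyc-Bcl2 WT and 44.0% and 20.9% in knockin. Of the 49, 20 were the positions before the Hoxa6 start described above, where genotypes overlapped once their reads were summed, and the other 29, which lay 1322 bp or more past the Hoxa7 start, were 0.6% to 10.1% methylated in every library.

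**Figure D3:**
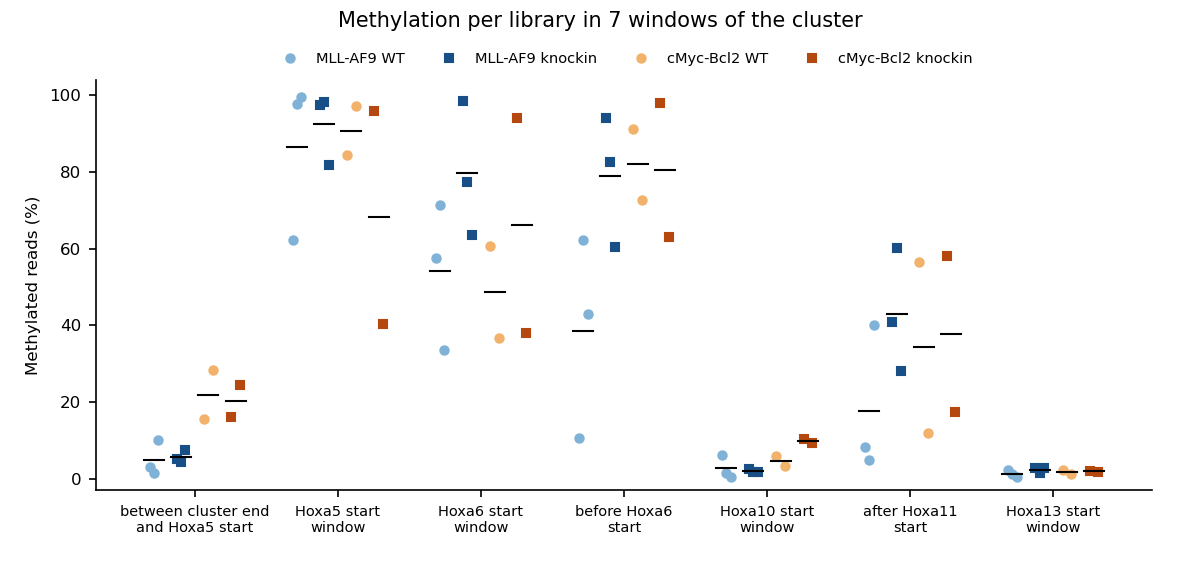
Percent of methylated reads (y axis) per library in 7 windows of 1 kb (x axis), with 1 point per library and a black line at each group mean. Libraries of 1 group lie far apart at Hoxa5, Hoxa6 and next to Hoxa11, and close together at Hoxa10 and Hoxa13.

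Comparing the leukaemias, cMyc-Bcl2 libraries were more methylated than MLL-AF9 libraries at 2 adjoining windows past Hoxa5, at lower coordinates. The first, chr6:52141001-52142000, lay 12589 bp or more past the Hoxa5 start and held 61 positions. Hoxa4 is the next gene in that direction, but its start was not placed. In MLL-AF9 the window was 2.9%, 1.6% and 10.04% methylated in WT and 5.2%, 4.4% and 7.5% in knockin. In cMyc-Bcl2 it was 15.5% and 28.2% in WT and 16.2% and 24.5% in knockin. All 4 cMyc-Bcl2 libraries lay above all 6 MLL-AF9 libraries. At 60 of the 61 positions the mean of the cMyc-Bcl2 libraries was the higher. That count only describes a window picked for its call, and neighbouring positions share reads and libraries, so it adds no support. The means were 4.85% ± 4.5 (SD, n = 3) against 21.8% ± 9.0 (SD, n = 2) in WT, a difference of 16.99 points with adjusted p = 0.0474 in the limma-moderated quasi-binomial fit. In the knockin libraries they were 5.72% ± 1.6 (SD, n = 3) against 20.3% ± 5.9 (SD, n = 2), a difference of 14.6 points with adjusted p = 0.0452 in that fit. Both calls sat near the threshold, and limma on M-values called neither (adjusted p = 0.155 in WT and 0.218 in knockin). The WT call ended without cMyc-Bcl2 WT replicate 2, MLL-AF9 WT replicate 1 or 2, or any 1 of the MLL-AF9 knockin libraries (6 of 10 libraries), with differences of 10.6 to 24.0 points over all 10 omissions. The knockin call ended without cMyc-Bcl2 knockin replicate 2, MLL-AF9 WT replicate 1 or any 1 of the MLL-AF9 knockin libraries (5 of 10), with differences of 10.5 to 18.8 points.

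The adjoining window, chr6:52142001-52143000, held 4 positions. It was 0.0% to 3.3% methylated in the 6 MLL-AF9 libraries, 13.7% and 6.2% in cMyc-Bcl2 WT, and 13.9% and 13.0% in cMyc-Bcl2 knockin. The knockin difference between leukaemias was 12.6 points (adjusted p = 0.0113, limma-moderated quasi-binomial fit). Limma on M-values called this window in knockin too (adjusted p = 0.0348). Leaving out MLL-AF9 knockin replicate 3 ended that call, at 12.1 points. The WT difference of 7.83 points was not called.

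Counted over the cluster, 1 of 22 windows was called higher in cMyc-Bcl2 in the WT comparison, against 0.68% of all windows, and 0 lower, against 0.314%. In the knockin comparison 2 of 22 were called higher, against 3.44%, and 0 lower, against 1.86%. At an unadjusted p under 0.05 the fit had 6 and 12 of 22, against 13.3% and 24.5%. Limma on M-values called 0, against 0.544%, with 10 at that p, against 12.4%, in WT, and 1, against 1.03%, with 9 at that p, against 17.4%, in knockin. Fits of only the libraries compared called 0 of 23 higher in WT, against 0.105% of all windows, and 3 of 31 in knockin, against 1.84%. The added window, chr6:52179001-52180000 between Hoxa7 and Hoxa10, differed by 13.7 points (adjusted p = 0.0179, limma-moderated quasi-binomial fit). The direction was more widespread than the calls. The cMyc-Bcl2 mean was higher in 20 of 22 windows in WT and in 15 of 22 in knockin, where over all windows it was higher in 53.9% and 39.3%. The cMyc-Bcl2 libraries lay above the MLL-AF9 libraries without overlap in 9 of 22 windows in WT, against 15.7% of all windows, and in 12 of 22 in knockin, against 15.2%. They lay below without overlap in 1 of 22 windows in each, against 10.3% and 25.3%. Those comparisons share no library, and 6 windows were among both counts, against 5.14% of all windows. The median difference was 4.09 points in WT and 4.14 in knockin, beside 0.148 and -0.448 over all windows.

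**Figure D4:**
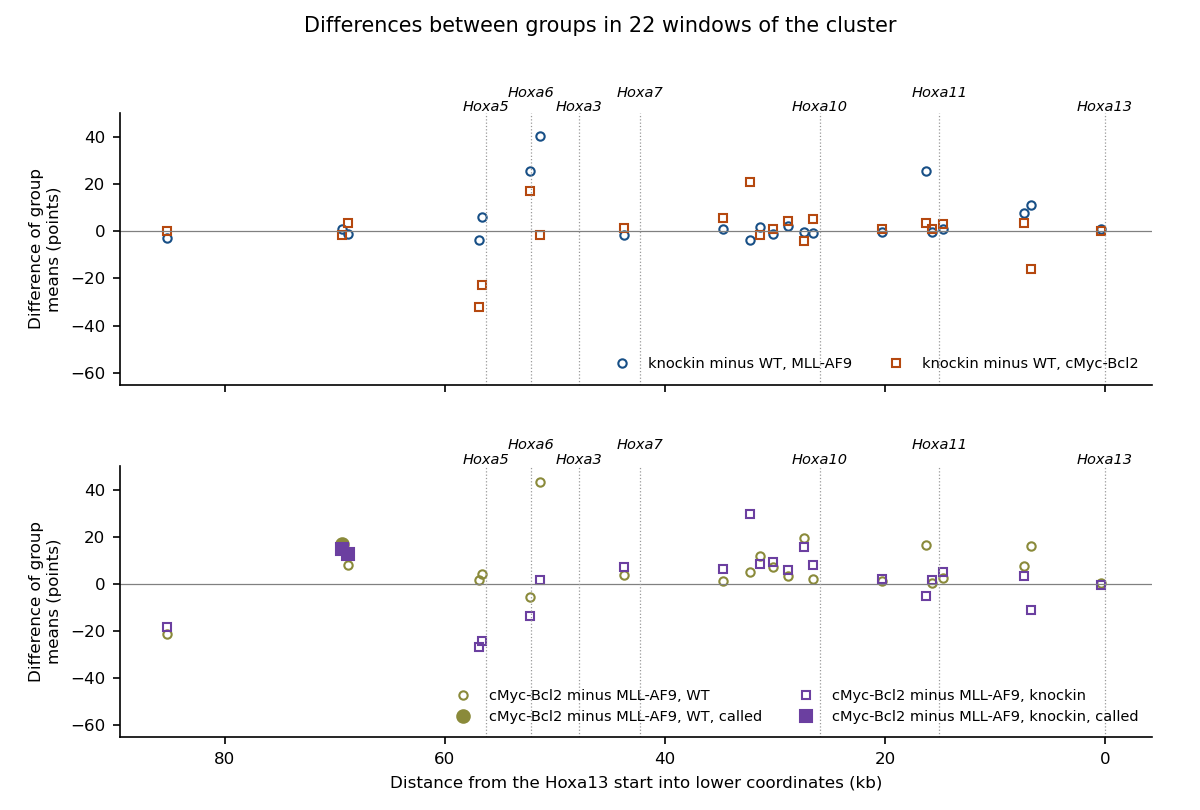
Difference of group means in percentage points (y axis) per 1-kb window against distance from the Hoxa13 start in kb (x axis), knockin minus WT in the upper panel and cMyc-Bcl2 minus MLL-AF9 in the lower. Filled symbols are called windows, of which there are 0 in the upper panel and 3 in the lower (1 in WT and 2 in knockin), and most open symbols of the lower panel between the Hoxa7 and Hoxa10 starts lie above 0.

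In gene order, Hoxa9, the Hox gene most closely tied to MLL-fusion leukaemia, lies between Hoxa7 and Hoxa10. Its start was not placed, so no value here can be assigned to it. The stretch from Hoxa7 to Hoxa10 was nearly free of methylation in MLL-AF9 and low but higher in cMyc-Bcl2. Its 113 positions averaged 5.6%, 1.3% and 2.4% in MLL-AF9 WT and 2.6%, 4.3% and 2.8% in knockin. They averaged 10.1% and 9.8% in cMyc-Bcl2 WT and 17.3% and 8.8% in knockin. No cMyc-Bcl2 library came as low as an MLL-AF9 library of the same genotype. By group the mean was 3.07% ± 2.2 (SD, n = 3) and 3.24% ± 0.94 (SD, n = 3) in MLL-AF9, with 9.93% ± 0.18 (SD, n = 2) and 13.0% ± 6.0 (SD, n = 2) in cMyc-Bcl2. The Hoxa10 start window held 46 of the 113 positions and the window next to it 21. At chr6:52176001-52177000, the tested window nearest the Hoxa7 start, the leukaemias overlapped in WT, with means of 2.6% in MLL-AF9 and 4.0% in cMyc-Bcl2. In knockin they did not overlap there (3.4% and 9.6%). Single windows of this stretch were higher in some cMyc-Bcl2 libraries. At chr6:52178001-52179000 the WT libraries were at 22.3% and 6.5% and the knockin libraries at 51.3% and 19.6%. At chr6:52183001-52184000 they were at 17.0% and 34.7% in WT and at 34.7% and 8.5% in knockin, so that 1 library of each genotype reached the same level.

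Hoxa10, which restrains myeloid differentiation when overexpressed, carried little methylation in the 1-kb window of its start. The 46 positions, 338 bp or more past the start, were 6.2%, 1.5% and 0.3% methylated in MLL-AF9 WT and 2.6%, 1.7% and 1.7% in knockin. They were 6.0% and 3.4% in cMyc-Bcl2 WT and 10.5% and 9.4% in knockin. The cMyc-Bcl2 knockin libraries were the highest of all 10. Against the MLL-AF9 knockin libraries they differed by 7.91 points (adjusted p = 0.0186, limma-moderated quasi-binomial fit), which is under the 10 points a call needs. Against cMyc-Bcl2 WT the difference was 5.21 points (adjusted p = 0.0735, same fit).

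Hoxa11, a posterior member of the cluster used in limb and uterus, was low at its start and variable 1116 bp inside the gene. The window just past the start was 0.9% to 4.4% methylated in all 10 libraries, and the next window before the start 1.0% to 10.4%. The window 1116 bp or more past the start, with 7 positions, was 8.2%, 4.8% and 40.0% methylated in MLL-AF9 WT and 41.0%, 60.2% and 28.0% in knockin. In cMyc-Bcl2 it was 56.5% and 11.97% in WT and 58.1% and 17.5% in knockin. Genotypes overlapped in both leukaemias, and the MLL-AF9 difference of 25.4 points had adjusted p = 0.654 in the limma-moderated quasi-binomial fit.

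Hoxa13, the last gene of the cluster, which patterns limbs and the genital tract, had little methylation around its start. The 28 positions of that window ranged from 0.5% to 2.8% over the 10 libraries, and the 4 group means from 1.31% to 2.36%. Some methylation lay 6963 bp or more past the Hoxa13 start, where 31 positions were 2.4%, 1.9% and 5.6% methylated in MLL-AF9 WT and 15.3%, 12.7% and 4.7% in knockin. There the cMyc-Bcl2 libraries stood at 15.3% and 6.2% in WT and at 13.2% and 15.6% in knockin, and no comparison was called.

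Hoxa3 and Hoxa7 had no position with 5 reads in all 10 libraries within 1 kb of their starts. In the 4 cMyc-Bcl2 libraries, 4 positions within 1 kb past the Hoxa3 start were 6.1% and 0.9% methylated in WT and 8.7% and 7.1% in knockin. Near the low-coordinate end of the cluster, at chr6:52125001-52126000, methylation was high in MLL-AF9, at 87.8% to 98.6% in all 6 libraries. The cMyc-Bcl2 libraries were split there, at 58.9% and 91.5% in WT and 53.8% and 96.7% in knockin. In each genotype 1 of the 2 cMyc-Bcl2 libraries was low and the other was like MLL-AF9.

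In the cluster 994 to 1045 positions reached 5 reads in the cMyc-Bcl2 libraries and 630 to 988 in the MLL-AF9 libraries. With only the 4 cMyc-Bcl2 libraries 812 positions and 39 windows could be compared, against 470 positions and 24 windows with the 6 MLL-AF9 libraries alone. Fits on these larger sets called 0 windows of the cluster in either leukaemia, against 0.0014% higher and 0.0% lower of all windows in cMyc-Bcl2. For MLL-AF9 those shares were 0.0515% and 0.00215%. In these quasi-binomial fits 11 of 39 and 3 of 24 windows had an unadjusted p under 0.05, against 12.4% and 14.8% of all windows. Both cMyc-Bcl2 knockin libraries lay above both WT libraries in 17 of 39 windows, against 23.5% of all windows, and below in 2, against 17.2%. In MLL-AF9 the 3 knockin libraries lay above in 2 of 24, against 18.9%, and below in 1, against 1.43%. The widest such gap was at chr6:52189001-52190000, between Hoxa10 and Hoxa11, where 6 positions were 20.9% and 8.2% methylated in WT and 64.8% and 59.4% in knockin. This difference of 47.5 points had adjusted p = 0.143 in the limma-moderated quasi-binomial fit. Next came chr6:52178001-52179000 between Hoxa7 and Hoxa10, with 17.4% and 6.9% in WT and 55.2% and 35.7% in knockin on 4 positions. At chr6:52202001-52203000 between Hoxa11 and Hoxa13, 3 positions were at 7.8% and 1.0% in WT and at 39.4% and 33.3% in knockin. Those 3 windows were chosen for their size after the values were seen, and none passed the test (adjusted p = 0.260 and 0.185 for the latter pair, same fit).

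For the difference of the knockin effects, 0 of 22 windows were called by the limma-moderated quasi-binomial fit, against 0.0% of all windows in each direction, with 1 at an unadjusted p under 0.05, against 11.0%. Limma on M-values also called 0, against 0.00247%, with 1 at that unadjusted p, against 9.05%. Averaged over the cluster, the knockin difference in cMyc-Bcl2 minus that in MLL-AF9 was -0.970 points.

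Spread between libraries of 1 group was wide in parts of the cluster. Libraries of 1 group differed by at least 20 points in 4 of 22 windows in MLL-AF9 WT, 4 in MLL-AF9 knockin, 3 in cMyc-Bcl2 WT and 8 in cMyc-Bcl2 knockin. Over all autosomal windows the shares were 12.4%, 8.47%, 6.96% and 7.68%. The 2 cMyc-Bcl2 WT libraries had a median SD of 6.78 points in the cluster's windows, beside 1.75 over all windows.

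Among genes that act with the cluster, those that could be tested had little methylation at their starts apart from Meis1. A list of 26 such genes held flanking genes, Hox cofactors, MLL complex members and fusion partners, Polycomb subunits and upstream regulators, and 12 of them were placed and tested. In MLL-AF9 the 12 windows averaged 0.536% to 3.05% over both genotypes. None of the 12 was called in any of the 6 comparisons. Placement needed at least 6 matching CpG positions, which favours CpG-rich promoters, so the 12 do not stand for the whole list. Meis1, the cofactor of Hoxa9 in leukaemia, was 4.5%, 1.1% and 2.0% methylated in MLL-AF9 WT and 1.6%, 7.6% and 0.0% in knockin on 3 positions. In cMyc-Bcl2 it was 24.6% and 4.6% in WT and 25.3% and 21.8% in knockin. The knockin libraries of cMyc-Bcl2 lay above all MLL-AF9 libraries, and the difference of 20.5 points had adjusted p = 0.0850 in the limma-moderated quasi-binomial fit. As markers of blood cell types, the placed starts of Cebpa (myeloid), Kit and Gata2 (stem or progenitor) and Tcf7 (T cell) were under 10% methylated in every library, and 0 of their 5 windows were called in any comparison, which needs 10 points. One of the 2 Gata2 windows nevertheless differed at under 10 points. It was 1.1%, 3.1% and 2.0% methylated in MLL-AF9 WT, 1.8%, 2.6% and 1.7% in MLL-AF9 knockin, 3.9% and 2.7% in cMyc-Bcl2 WT and 9.5% and 8.5% in cMyc-Bcl2 knockin. The cMyc-Bcl2 knockin libraries stood 5.69 points above their WT (adjusted p = 0.00796) and 6.96 points above MLL-AF9 knockin (adjusted p = 0.00223, both from the limma-moderated quasi-binomial fit). The part of this marker in the differences of the cluster was not tested. Of the 22 marker genes listed, 4 could be tested, which leaves the cell type unchecked.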

How the data were processed

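Bisulfite-converted MspI fragments of leukaemic spleen DNA had been sequenced as 10 libraries, 3 in each MLL-AF9 group and 2 in each cMyc-Bcl2 group. CASAVA, Trim Galore (version 0.2.2), Bismark (version 0.7.4), methylKit and the mm9 build are named per the submitters' processing notes, without their settings. The deposited files give for each CpG position its counts of methylated and unmethylated reads. Both strands of a CpG are listed at adjacent positions and were kept apart, as 75 adjacent pairs among the 390 cluster positions.

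Levels are methylated reads over all reads. Positions needed 5 reads in each library, and reads were summed per 1-kb window with at least 3 positions. A quasi-binomial model of the 4 groups was fitted to 40428 autosomal windows in Python 3.11.15, with dispersions moderated by limma 3.58.1 (squeezeVar) and held at 1 or above. Contrasts were tested with F-tests and Benjamini-Hochberg adjustment over all windows, and a call needed adjusted p under 0.05 and 10 points. The fit was tested on data simulated at a single dispersion, near the median of 2.23. The dispersion was 34.7 at chr6:52141001-52142000 and 220 in the window of the Hoxa6 start, so the simulation does not cover such windows. Gene starts needed at least 6 matching positions, none off a promoter CpG, and a runner-up place with at most 50% as many. Named in full were the called windows and the windows at the starts of the genes. The members and gene lists were chosen with earlier results of these data known. Alternatives were 10 or 20 reads, 500-bp windows, limma on M-values with 0.5 added to each count, only the libraries compared, weighting by reads, leaving out each library and, chosen after seeing the data, joined strands.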

Additional observations from a re-analysis of the deposited data

How the results depend on the processing

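At 10 reads a position, the cluster windows called between leukaemias numbered 0 in WT (1 as reported) and 1 in knockin (2 as reported). Limma on M-values gave 0 and 1, fits of only the libraries compared gave 0 in WT and 3 in knockin, and joined strands gave 4 in knockin. A minimum of 20 reads left no window of the cluster to test and 1 position behind the cluster mean. At that position the knockin difference was -6.05 points in MLL-AF9, that in cMyc-Bcl2 7.15, their average 0.550, the difference between leukaemias in knockin 19.5 and the difference of the knockin effects 13.2. Weighted by reads, the cluster difference was 0.0749 points for the cMyc-Bcl2 knockin, 2.18 between leukaemias in knockin and -3.93 for the difference of effects.

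Leaving out 1 library at a time, calls ranged from 0 to 1 for the cMyc-Bcl2 knockin (1 without MLL-AF9 WT replicate 1 or without cMyc-Bcl2 knockin replicate 2), from 0 to 1 for the averaged knockin (1 without cMyc-Bcl2 knockin replicate 2), from 0 to 1 between leukaemias in WT and from 0 to 5 in knockin (0 without MLL-AF9 knockin replicate 3, 5 without cMyc-Bcl2 knockin replicate 2). The cluster difference ranged from 2.77 to 4.91 points for the MLL-AF9 knockin, 0.0892 to 5.78 for the cMyc-Bcl2 knockin, 1.99 to 4.85 averaged, 4.9999 to 6.72 between leukaemias in WT, 2.45 to 7.93 in knockin and -3.79 to 1.88 for the difference of effects. The low value for the cMyc-Bcl2 knockin came without knockin replicate 1 and the high one without knockin replicate 2. Apart from these changes, whose cause was not tested beyond the fewer positions and libraries named, 143 of the recomputed cluster counts and means kept their value within the spread between libraries or 1.5 times. In the same recomputations 30 moved and 3 reversed direction. Precision is limited by 2 or 3 libraries a group and by the 390 positions that 10 libraries share.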
